A study of Mus musculus with 12 samples.

Results

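The clustered protocadherins of the mouse were followed across 12 RNA-seq libraries of cultured kidney proximal tubule cells. Members were all protein-coding genes whose symbol placed them in the alpha, beta or gamma cluster, whatever their counts. The symbols gave 58 genes of 25514 genes in the tables, of which 14 were alpha, 22 were beta and 22 were gamma genes. In the GRCm38.p6 gene table, all 3 clusters lie on chromosome 18. The alpha genes span positions 36930285 to 37188897, the beta genes 37264998 to 37521419, and the 21 gamma genes that the table lists span 37661775 to 37841873.

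Clustered protocadherins are single-pass membrane proteins of the cadherin superfamily, best known from neurons, where each cell shows its own combination of isoforms. Their extracellular cadherin domains bind the same isoform on a facing cell. Alpha and gamma genes each have a large variable exon with its own promoter, which encodes the extracellular and transmembrane parts and is spliced to 3 constant exons that encode a common cytoplasmic end. Beta genes consist of 1 coding exon and have no constant exons. CTCF and cohesin bring promoters of the clusters to distant enhancers, and DNA methylation and the chromatin protein Smchd1 are known to keep promoters of the clusters silent. The C-type genes (Pcdhac1, Pcdhac2, Pcdhgc3, Pcdhgc4 and Pcdhgc5) lie at the downstream ends of the alpha and gamma clusters and are known to be under different control from the others.

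The cells were conditionally immortalized proximal tubule cells carrying the H2ts6 allele, grown at a permissive temperature and moved to 37 °C before use. TβRII flox/flox cells carried floxed alleles of Tgfbr2, the type II TGF-β receptor, and TβRII-/- cells were made from such cells by Cre recombinase delivered in vitro. The untreated groups were kept in the normal culture medium, and the H2O2 groups received H2O2 in serum-free medium for 24 h. The study's methods also give 24 h of serum starvation before H2O2 was added. Oxidant and serum withdrawal, which may have lasted longer than the oxidant, therefore cannot be told apart. The labels state the H2O2 dose as 200 mM and the study's methods as 200 μM. Each of the 4 groups had 3 libraries. The genotypes are 2 cell lines, so the deletion cannot be told apart from other differences between the lines, and the labels do not say whether the replicates of a group were separate cultures. The study's methods speak in general of independent experiments or biological replicates, without naming these libraries, and p-values measure the spread between them. Gene counts summed to 15870155 to 20857618 per library. Tgfbr2 was counted in every library, with 7032 to 8791 counts in untreated TβRII flox/flox and 6485 to 6895 in untreated TβRII-/- cells. These counts cover the whole transcript and do not test the loss of the floxed exon.

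The libraries of the 2 lines also differed in markers of cell identity. Here and below, a gene was called when edgeR's quasi-likelihood test gave an adjusted p below 0.05 over all 12971 genes tested and the fold change was at least 1.5. Levels are counts scaled to a common library size (normalized counts), a list is given by the range of its summed level over 3 libraries, and log2 fold changes are given ± SE. This SE is the size of the log2 fold change over the square root of the F statistic of the test. For genes with few counts in a line, such as Pcdhb15 and Pcdhga7 below, it is smaller than the counting error alone. Of 12 proximal tubule markers, 6 passed the filter on low counts, and all 6 were called lower in untreated TβRII-/- cells, with a sum of 15056 to 16088 against 22028 to 28009.9 in untreated TβRII flox/flox cells. The other 6 had at most 3 counts in any library, among them Slc34a1, the sodium phosphate cotransporter, and Hnf4a, and Slc22a6 and Fbp1 had 0 counts in all 12. The labels call both lines proximal tubule cells, and these defining markers were thus near 0 in both. Of 8 markers of kidney epithelium, 5 were called higher, and the sum was 25584 to 27880.5 in untreated TβRII flox/flox and 44519 to 47603 in untreated TβRII-/- cells. Cdh1, which encodes E-cadherin, was counted 1, 1 and 3 times in the first and 1069, 1080 and 1223 times in the second, and Epcam 0, 1 and 0 and 697, 662 and 649 times.

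Markers of other cell types moved with the lines as well. Of 7 fibroblast markers 4 were tested, with 3 called lower and 1 higher, and the sum was 5584 to 6933 in untreated TβRII flox/flox and 189.5 to 241 in untreated TβRII-/- cells. Nearly all of it was Postn, which encodes the matrix protein periostin, while Pdgfra and Col1a2 were near 0 and Lum was at 0 in all 12 libraries. Of 8 neuron markers 2 were tested, Tubb3 was called lower, and the sum was 507 to 565 and 363 to 375 in the same groups. Most of it was Map2, and Snap25 and Elavl4 were at 0 in all libraries. The sum of 4 endothelial markers, nearly all Kdr, was 127 to 138 and 464 to 586, that of 4 immune markers, nearly all Cd68, 129 to 144 and 231 to 253, and that of 4 podocyte markers, nearly all Podxl and Wt1, 266 to 299.8 and 714 to 742. Kdr, Cd68 and Podxl were called higher in TβRII-/- cells, and Cd3e, Adgre1 and Nphs1 were at 0 in every library.

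Beta protocadherins were close to absent from TβRII-/- cells. The normalized counts of the 22 beta genes, summed, came to 3588, 3321 and 3089.7 in the untreated TβRII flox/flox libraries and to 87.8, 88.1 and 76.6 in the untreated TβRII-/- libraries. With H2O2 they came to 4478, 5008 and 4581 and to 115, 147 and 141. The lowest TβRII flox/flox library was therefore far above the highest TβRII-/- library in both conditions. The mean of the sum was 39.6 times higher in untreated TβRII flox/flox (3333 ± 249.6, SD, n = 3) than in untreated TβRII-/- cells (84.2 ± 6.58), and 34.9 times higher with H2O2 (4689 ± 281 against 135 ± 16.8). In bulk samples, fewer cells that express a gene and less RNA per cell cannot be told apart. The marker differences given above moved with the same 2 lines, and their part in this result was not tested.

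Of the 22 beta genes, 18 passed the filter on low counts. The other 4, Pcdhb1, Pcdhb8, Pcdhb10 and Pcdhb13, had at most 3, 16, 7 and 10 counts in any library. Of all genes tested, 11.8% were called lower and 16.3% higher in untreated TβRII-/- cells, and the 18 tested beta genes were called lower. With H2O2 in both lines, 13.4% of all genes were called lower and 17.3% higher, and the 18 beta genes were again called lower. The filter can be passed through the TβRII flox/flox libraries alone, so a beta gene with few counts in TβRII-/- cells could enter the test only by being higher in the other line. Pcdhb16, Pcdhb17 and Pcdhb22 had at least 10 counts in every library, and these 3 were called lower in both conditions. The median fitted log2 fold change of the 18 genes was -4.91 untreated and -5.11 with H2O2, beside medians of 0.0085 and 0.018 over all genes tested. These medians are descriptions, since fitted values of genes with almost no counts in TβRII-/- cells depend on the prior count of the fit.

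Pcdhb16, the most abundant beta gene, had 1549.6, 1343 and 1352 normalized counts in the untreated TβRII flox/flox libraries and 16.7, 29 and 19.1 in the untreated TβRII-/- libraries. No value of one line came near those of the other. Its log2 fold change was -6.02 ± 0.13, with an adjusted p of 3.53e-28 in edgeR's quasi-likelihood test, and -6.28 ± 0.12 with H2O2 (adjusted p = 4.52e-29 in edgeR). Pcdhb17 had 739.6, 663 and 615 against 31.4, 18.4 and 31.6 normalized counts without treatment, a log2 fold change of -4.63 ± 0.14 (adjusted p = 1.35e-23 in edgeR). Pcdhb22, the last beta gene of the cluster, had 239.9, 245 and 191 against 13.6, 16.5 and 9.57, a log2 fold change of -4.08 ± 0.19 (adjusted p = 5.4e-19 in edgeR). Of the 3, Pcdhb16 differed most between the lines. Transcript lengths came from a later GENCODE release than the one counted. On these lengths, the untreated TβRII flox/flox level per kilobase was 271 normalized counts for Pcdhb16, 144 for Pcdhb17 and 68.6 for Pcdhb15. Pcdhb22 came to 34.1 on a length of 6609 bases, more than its span of 37518353 to 37521419 in the GRCm38.p6 gene table. The order of genes by this measure may therefore depend on the gene models used.

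Other abundant beta genes left almost no counts in TβRII-/- cells. Pcdhb15 had 190.4, 187 and 199 normalized counts in untreated TβRII flox/flox and 1.05, 2.9 and 0 in untreated TβRII-/- libraries. Pcdhb14 had 130.4, 155 and 114 against 0, 0 and 1.91. The raw Pcdhb14 counts over 3 libraries were 369 and 2, a ratio of 201 with a 95% exact interval of 55.4 to 1669. Both TβRII-/- reads came from replicate 3, and leaving out that library moved the fitted log2 fold change to -10.05, against -7.41 with all libraries. The raw counts of Pcdhb15 were 534 and 4, a ratio of 146 with a 95% exact interval of 56.6 to 537. Its fitted log2 fold change was -7.06 ± 0.31, and -8.27 without TβRII-/- replicate 2, which held most of its reads there. These intervals pool the reads of 3 libraries, so they cover counting error only and leave out the spread between libraries. They treat reads as independent, although the reads carry no molecular identifiers. The bounds below divide the mean normalized count of TβRII flox/flox cells by a floor of 3 and include no error. Pcdhb12 had 47.3, 45.6 and 36.6 normalized counts in untreated TβRII flox/flox libraries and 0 in all 3 untreated TβRII-/- libraries. Set against a floor of 3 counts per library, Pcdhb12 was at least 14.4-fold lower in TβRII-/- cells. Pcdhb11 had 30.5, 47.8 and 33.3 normalized counts in the untreated TβRII flox/flox libraries and 0 in all 6 TβRII-/- libraries, at least 12.4-fold lower without treatment and at least 22.6-fold lower with H2O2.

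The untreated TβRII-/- libraries held 0 counts of 6 beta genes (Pcdhb1, Pcdhb9, Pcdhb10, Pcdhb11, Pcdhb12 and Pcdhb13), 1 to 3 counts in all of another 8, and more than 3 counts of the remaining 8. The 9 genes from Pcdhb14 to Pcdhb22, at the end of the cluster nearest to the gamma genes, made up 88% of the mean beta sum in untreated TβRII flox/flox cells and 90.9% in untreated TβRII-/- cells. Within the sum, the share of Pcdhb16 was 42.5% in the first and 25.7% in the second, and that of Pcdhb17 was 20.2% and 32.2%. Upstream of this stretch, Pcdhb5 and Pcdhb7 were the most abundant, with 145 ± 24.5 and 101 ± 25.5 normalized counts in untreated TβRII flox/flox cells (SD, n = 3) and 0.965 ± 0.968 and 2.6 ± 1.99 in untreated TβRII-/- cells. These shares are descriptions, and the stretch was chosen after its values were seen. Beta genes are close copies of each other, and how the authors' counting treated reads that match several of them is not given in the sources used here, so a read may have been credited to the wrong beta gene. Pcdhb21 and Pcdhb22 overlap by 455 bases in the gene models of a later GENCODE release than the one counted. In the GRCm38.p6 gene table Pcdhb21 ends at 37516363 and Pcdhb22 starts at 37518353, so they do not overlap there. Whether reads entered both counts was not tested.

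**Figure D1:**
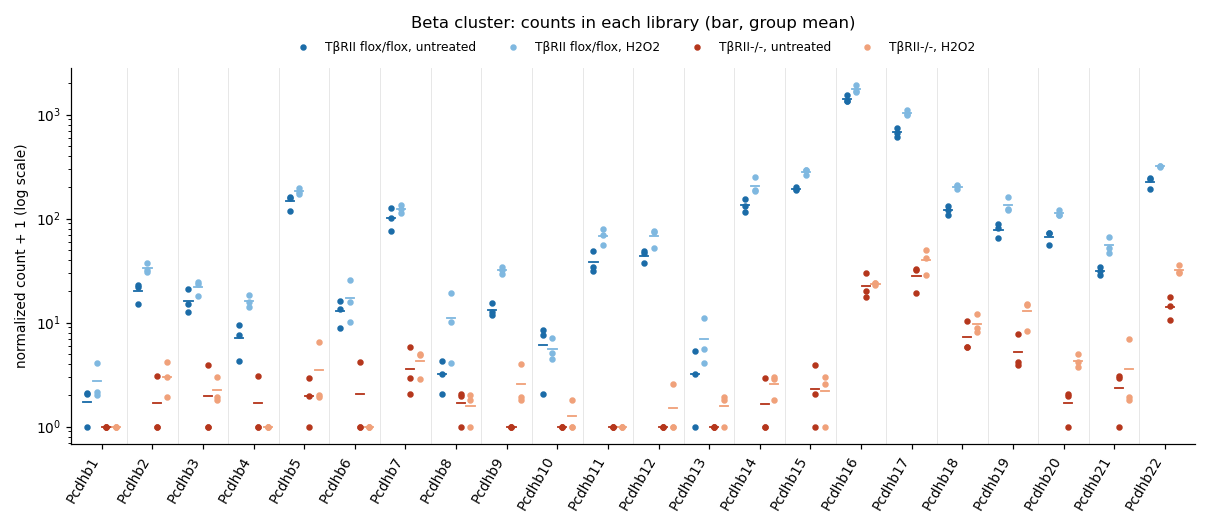
Normalized counts plus 1 of the 22 beta genes, in chromosome order, on a log scale; each point is 1 library and each bar the mean of 3 libraries, with the 4 groups side by side and a value of 1 standing for 0 counts. The 6 TβRII-/- points of Pcdhb11 all lie at 0 counts, and Pcdhb16 and Pcdhb17 are the highest genes in TβRII flox/flox cells.

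The genes that surround the clusters on chromosome 18 did not follow the beta genes. Within 1 Mb of either end of the clusters and between them, the GRCm38.p6 table lists 40 other protein-coding genes, leaving aside read-through models, and 33 of these passed the filter. Of these 33, 3 were called lower and 4 higher in untreated TβRII-/- cells, beside 11.8% lower and 16.3% higher over all genes tested. These counts are near the shares of all genes. Their median log2 fold change was -0.21 in untreated cells, beside -0.25 over the other tested genes of chromosome 18 without the members. The median over all genes tested was 0.0085, so chromosome 18 without the members also had a lower median in TβRII-/- cells. With H2O2 these 3 medians were -0.19, -0.21 and 0.018. The cause of this shift was not tested. Taf7, which encodes a subunit of the general transcription factor TFIID and lies between the beta and gamma clusters at 37640491 to 37644204, had 157, 228 and 188 normalized counts in untreated TβRII flox/flox and 227, 214 and 207 in untreated TβRII-/- libraries. The groups overlapped, and its log2 fold change of 0.18 ± 0.12 was not called (adjusted p = 0.191 in edgeR). Zmat2, the gene next to the alpha cluster, had a log2 fold change of -0.23 ± 0.07 and Diaph1, which encodes an actin-nucleating formin and lies next to the gamma cluster, one of -0.32 ± 0.06, both under the 1.5-fold limit. The strongest fall among the 33 was that of Arap3, at -1.82 ± 0.53, from 15.8, 20 and 10.8 to 4.18, 6.78 and 1.91 normalized counts. Arap3 reached the filter mostly through the untreated TβRII flox/flox libraries, where it was highest, so its call is a description. Pcdh1, a protocadherin outside the clusters that lies at 38185914 to 38212048, went the other way, with 7.36, 8.9 and 7.53 normalized counts in untreated TβRII flox/flox and 62.7, 44.5 and 63.2 in untreated TβRII-/- libraries. This log2 fold change was 2.82 ± 0.31 (adjusted p = 2.25e-09 in edgeR).

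**Figure D2:**
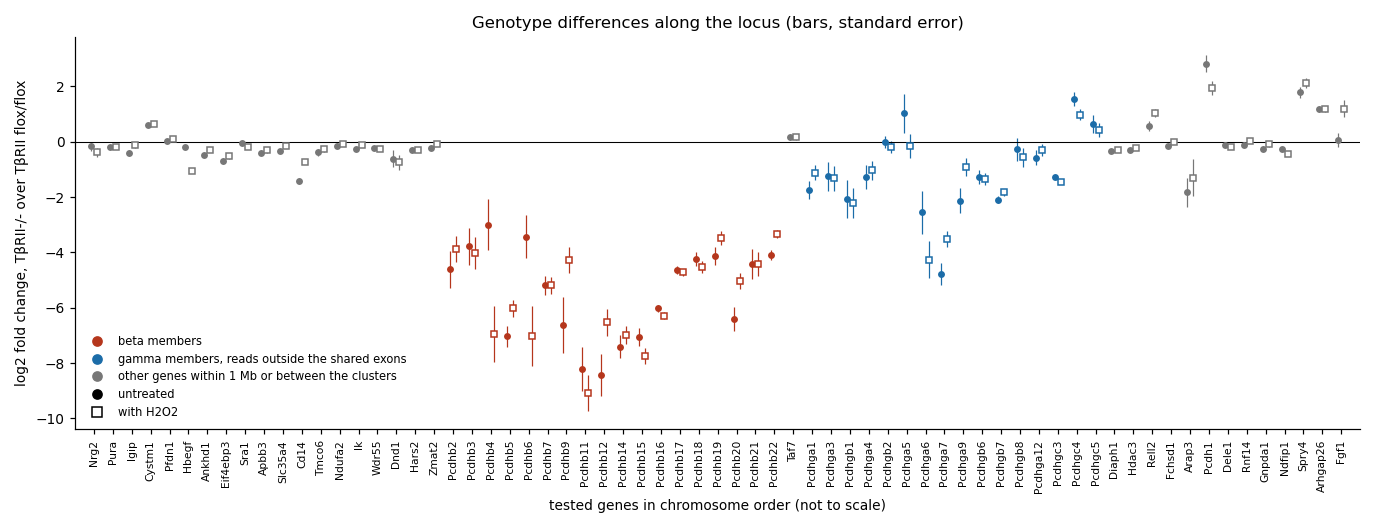
Fitted log2 fold changes of TβRII-/- over TβRII flox/flox cells, with standard errors, for the tested genes on this stretch of chromosome 18 in their order along it, not to scale; filled circles are untreated cells and open squares cells with H2O2. The tested beta genes lie between -2.99 and -9.09, and the 16 gamma genes, drawn without the reads of the shared exons, spread on both sides of 0. Most of the other genes lie nearer to 0, with an untreated median of -0.21. Fitted values of genes with almost no counts in one line, as with Pcdhb11, depend on the prior count.

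Gamma protocadherins were lower in TβRII-/- cells by a smaller factor, and 1 gene carried most of their reads. In the tables each transcript has its own count, and 1 read in the 3 constant exons (2207 bases in all) appears in the counts of all gamma transcripts that hold it. The 22 gamma counts are therefore largely the same reads: the lowest gamma count of a library, taken here as the shared part, made up more than 95% of the counts of 20 of the 22 genes. The shared part came to 4569, 4352 and 3476 normalized counts in untreated TβRII flox/flox and 1947, 1991 and 1826 in untreated TβRII-/- libraries, with no overlap. Its mean was 2.15 times higher in untreated TβRII flox/flox cells (4132 ± 579, SD, n = 3) than in untreated TβRII-/- cells (1921 ± 85.5), and 2.23 times higher with H2O2 (4907 ± 117 against 2202 ± 53.6). All 22 gamma transcripts were called lower in both conditions, at log2 fold changes of -1.18 to -1.07 untreated, but since they count the same reads these are not 22 separate results.

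Removing the shared part leaves the reads outside the shared exons, which are called a gene's own reads here. Pcdhgc3 held 84.4% of these own reads in untreated TβRII flox/flox and 83.1% in untreated TβRII-/- cells, as the mean over 3 libraries. Per kilobase, the own reads of Pcdhgc3 came to 1515 normalized counts in untreated TβRII flox/flox cells, those of all 22 genes together to 1788, and the shared exons to 1872. The variable exons together thus reached nearly the level per kilobase of the constant exons they are spliced to. The 22 beta genes together reached 708 normalized counts per kilobase in the same cells and 17 in untreated TβRII-/- cells, where Pcdhgc3 still reached 628. These lengths are those of the later GENCODE release, in which some beta genes, such as Pcdhb22, are longer than in the GRCm38.p6 gene table. The beta totals per kilobase may therefore be too low.

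Tested without the shared part, 16 of the 22 gamma genes passed the filter, and Pcdhga2, Pcdhga8, Pcdhga10, Pcdhga11, Pcdhgb4 and Pcdhgb5 did not. In that fit 11.7% of all genes tested were called lower and 16.3% higher in untreated TβRII-/- cells, and of the 16 gamma genes 10 were called lower, 1 higher and 5 not called. With H2O2 the shares of all genes were 13.4% and 17.2%, and again 10 gamma genes were called lower and 1 higher. Several of the 10 passed the filter through TβRII flox/flox libraries. Untreated, Pcdhga6 had 7, 5 and 11 own raw reads against 0, 4 and 0, and Pcdhgb1 8, 11 and 5 against 2, 0 and 4. Such genes could enter the test only by being higher in that line, so both counts of 10 are descriptions. Pcdhgc3 had 4339.6, 3923 and 3411 own normalized counts in untreated TβRII flox/flox and 1656, 1598 and 1581 in untreated TβRII-/- libraries. Its log2 fold change was -1.27 ± 0.07, 2.42-fold lower (adjusted p = 7.17e-17 in edgeR), and -1.47 ± 0.07 with H2O2. Pcdhgb7, the gene with the second most own reads, had 389, 344 and 286 against 70.1, 83.3 and 84.2, a log2 fold change of -2.10 ± 0.12 (adjusted p = 4.99e-16 in edgeR). Pcdhga7 had 77.8, 72.3 and 50.5 own normalized counts against 3.14, 2.9 and 0.957. These TβRII-/- values rest on 3, 3 and 1 reads, so that Pcdhga7 passed the filter through the other line. It was called lower (adjusted p = 1.8e-12 in edgeR), and its fitted log2 fold change of -4.79 ± 0.39 depends on the prior count.

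Pcdhgc4, the C-type isoform known to be needed for neuronal survival, was higher in TβRII-/- cells in its own reads, although its whole transcript, shared exons included, was called lower. Its own reads came to 16.8, 14.5 and 22.6 normalized counts in untreated TβRII flox/flox and 38.7, 49.4 and 68.9 in untreated TβRII-/- libraries. Every TβRII-/- library was above every TβRII flox/flox library, at a log2 fold change of 1.54 ± 0.27 (adjusted p = 6.82e-06 in edgeR). With H2O2 the own reads were 46.7, 62 and 40.1 and 97.8, 101 and 95.5, a log2 fold change of 0.98 ± 0.19 (adjusted p = 5.15e-05 in edgeR). Pcdhgc5, the last gene of the cluster, had 21, 7.79 and 30.1 against 36.6, 25.2 and 31.6 own normalized counts without treatment. The groups overlapped, and the log2 fold change of 0.65 ± 0.32 was not called (adjusted p = 0.0787 in edgeR). Pcdhgb2 had 52.6, 44.5 and 45.2 against 52.3, 56.2 and 34.5, with overlapping groups and a log2 fold change of 0.00050 ± 0.23.

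Some gamma genes also have annotated transcripts with no base of the shared exons, whose counts need no subtraction. Such a single-exon transcript of Pcdhgc3 had 4451, 4008 and 3480.1 normalized counts in untreated TβRII flox/flox and 1697, 1632 and 1624 in untreated TβRII-/- libraries, with a log2 fold change of -1.25 ± 0.07 in the edgeR fit per transcript. That of Pcdhga7 had 90.5, 77.9 and 58.1 against 5.23, 2.9 and 1.91, with a log2 fold change of -4.45 ± 0.34. That of Pcdhgc4 had 22.1, 16.7 and 26.9 against 41.8, 54.2 and 78.5, with a log2 fold change of 1.43 ± 0.27 (adjusted p = 3.92e-05 in edgeR). The 3 genes kept the direction of their own reads in this measure, which was chosen after the data had been seen and counts mostly the same reads.

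**Figure D3:**
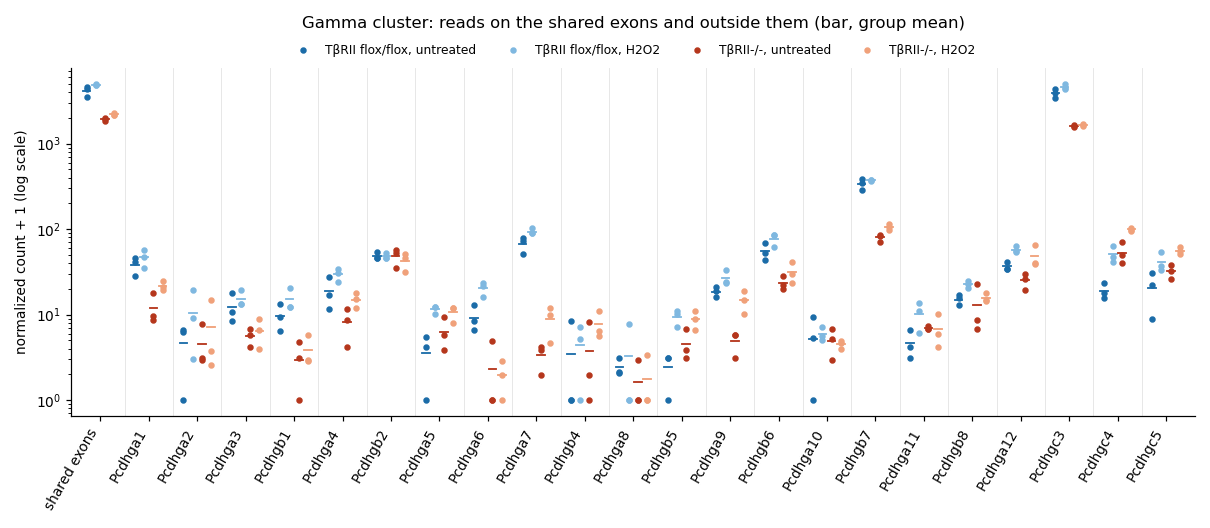
Normalized counts plus 1 of the gamma cluster on a log scale, split into the part shared by all 22 genes (left) and the reads of each gene outside it, in chromosome order; each point is 1 library, each bar the mean of 3, and a value of 1 stands for 0 counts. Pcdhgc3 stands above every other gene in all 4 groups, and Pcdhgc4 is the gene whose untreated TβRII-/- points lie between 38.7 and 68.9, above the untreated TβRII flox/flox points at 14.5 to 22.6.

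Alpha protocadherins were barely transcribed in either line. Across the 14 alpha genes, counts per library ran from 4 to 15 in TβRII flox/flox and from 0 to 2 in TβRII-/- libraries, and nearly all of these reads lay in the exons that the alpha genes share. The shared part was 5.26, 10.02 and 7.53 normalized counts in untreated TβRII flox/flox and 1.05, 0 and 0 in untreated TβRII-/- libraries. It was 13.2, 12.4 and 4.58 in TβRII flox/flox libraries with H2O2 and 0 in all 3 TβRII-/- libraries with H2O2. Of the 14, Pcdha6 and Pcdha9 passed the filter and were called lower in TβRII-/- cells in both conditions, but they passed through the TβRII flox/flox libraries, and at these counts the 14 genes cannot be told from each other. Pcdhac1 and Pcdhac2, the C-type genes of the cluster, had 5.26, 10.02 and 7.53 normalized counts each in untreated TβRII flox/flox libraries, the same as the shared part, so no read of their own variable exons was seen there. Over all 12 libraries the alpha genes with the highest means were Pcdha10, Pcdha9, Pcdha4 and Pcdha12. In the untreated TβRII flox/flox libraries Pcdha10 had 6.31, 10.02 and 7.53, Pcdha9 5.26, 11.1 and 7.53, Pcdha4 6.31, 10.02 and 8.6 and Pcdha12 5.26, 10.02 and 8.6 normalized counts, and in no single library did an alpha gene have more than 2 reads above the shared part.

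H2O2 in serum-free medium was accompanied by a modest rise of beta genes in TβRII flox/flox cells. The beta sum was 1.41 times its untreated mean there, and its 3 H2O2 libraries all lay above the 3 untreated ones. Of all genes tested, 5.68% were called higher and 2.56% lower with H2O2 in this line, and of the 18 tested beta genes 11 were called higher and none lower. Among the 11, Pcdhb4 went from 8, 6 and 3 to 13, 17 and 13 raw counts. It passed the filter through the H2O2 libraries of this line alone, so it could enter only by being higher there, and its call is a description. Pcdhb17 rose from 739.6, 663 and 615 to 1017, 1107 and 991 normalized counts, a log2 fold change of 0.63 ± 0.09 (adjusted p = 6.02e-07 in edgeR). Pcdhb18 rose by 0.75 ± 0.14 and Pcdhb9, from 12.3 ± 1.95 to 31 ± 2.41 normalized counts (SD, n = 3), by 1.34 ± 0.33 on the log2 scale. Pcdhb16 had 1669, 1934 and 1697 normalized counts with H2O2. Its log2 fold change of 0.32 ± 0.07 had an adjusted p of 0.000462 in edgeR but stayed under 1.5-fold. The count of 11 was 7 without untreated replicate 2 or without H2O2 replicate 3 of this line, 6 without untreated replicate 3 or without H2O2 replicate 2, 6 with counts summed over transcripts, 1 when at least 10 counts in every library were required and 8 with DESeq2. In this comparison the summed fibroblast markers went from 5584 to 6933 to 2637 to 3058 and the endothelial markers from 127 to 138 to 22.7 to 26.4, with Postn and Kdr called lower, and their part in the result was not tested.

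The small remainder of beta reads in TβRII-/- cells was also larger with H2O2, at 1.6 times the untreated mean, and the groups did not overlap. Of all genes tested, 4.56% were called higher and 3.76% lower with H2O2 in this line, and of the beta genes Pcdhb19 and Pcdhb22 were called higher. Pcdhb22 rose from 13.6, 16.5 and 9.57 to 35.1, 29.9 and 28.8 normalized counts, a log2 fold change of 1.24 ± 0.26 (adjusted p = 0.000339 in edgeR). Pcdhb19 rose from 3.14, 2.9 and 6.7 to 7.38, 14.2 and 13.9, a log2 fold change of 1.45 ± 0.47 (adjusted p = 0.0142 in edgeR). Pcdhb16 had 22.2, 22.8 and 22.9 normalized counts with H2O2, and its log2 fold change of 0.056 ± 0.25 was not called (adjusted p = 0.883 in edgeR). Without untreated replicate 2 or without H2O2 replicate 2 of this line, 1 beta gene was called. The summed endothelial markers went from 464 to 586 to 39.3 to 62.6 and the fibroblast markers from 189.5 to 241 to 124 to 147 with H2O2 in this line, and their part in the result was not tested.

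In the gamma cluster, none of the 22 whole transcripts passed 1.5-fold with H2O2 in edgeR or in DESeq2 in either line, though 22 in TβRII flox/flox and 21 in TβRII-/- cells had an unadjusted p below 0.05 in edgeR, and the adjusted p of each of these was below 0.05 as well. Of the 12971 genes tested, 6361 and 6150 had an unadjusted p below 0.05, and the gamma transcripts count the same reads, so these are not separate observations. The shared part was 1.19 and 1.15 times its untreated mean in the 2 lines. Without the shared part, 5.72% of all genes tested were called higher in TβRII flox/flox and 5 of the 16 tested gamma genes were (Pcdhga5, Pcdhga6, Pcdhga12, Pcdhgc4 and Pcdhgc5). Pcdhga5 went from 0, 4 and 3 to 11, 9 and 10 own raw reads, and Pcdhga6 from 7, 5 and 11 to 22, 20 and 13. The 0 of Pcdhga5 follows from the subtraction, since it had the lowest gamma count of that library. Pcdhga5 and Pcdhga6 reached the filter mostly through H2O2 libraries, where they were higher. The count of 5 that holds them is therefore a description. In TβRII-/- cells 4.6% of all genes were called higher and 6 of the 16 gamma genes were (Pcdhga1, Pcdhga7, Pcdhga9, Pcdhga12, Pcdhgc4 and Pcdhgc5). Pcdhga7 went there from 3, 3 and 1 to 4, 14 and 9 own raw reads, and Pcdhga9 from 2, 5 and 5 to 10, 23 and 14. Pcdhgc4 rose by 1.46 ± 0.27 in TβRII flox/flox and by 0.90 ± 0.19 in TβRII-/- cells on the log2 scale, so that its mean own reads ran from 18 ± 4.17 in untreated TβRII flox/flox over 49.6 ± 11.2 and 52.3 ± 15.3 to 98.2 ± 3 in TβRII-/- cells with H2O2 (SD, n = 3). The 2 groups in the middle overlapped. Pcdhgc5 rose by 1.05 ± 0.31 and by 0.82 ± 0.26. Pcdhgc3 moved little, by 0.24 ± 0.07 in TβRII flox/flox and by 0.038 ± 0.07 in TβRII-/- cells, the second with an adjusted p of 0.707 in edgeR.

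No member's response to H2O2 was shown to differ between the lines. In edgeR's test of the interaction, 3.9% of all genes tested had a higher and 6.28% a lower response in TβRII-/- cells at an adjusted p below 0.05, against 0 of the 42 members tested. In the fit without the shared part 0 of 16 gamma genes passed, and DESeq2 called 0 of the 42 members. In each tool 1 member had an unadjusted p below 0.05, and in edgeR this was Pcdhb22, with an interaction of 0.74 ± 0.29 on the log2 scale and an adjusted p of 0.0987. The low counts in TβRII-/- cells leave wide errors for most beta genes, and a p above the threshold does not show that the responses were alike.

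**Figure D4:**
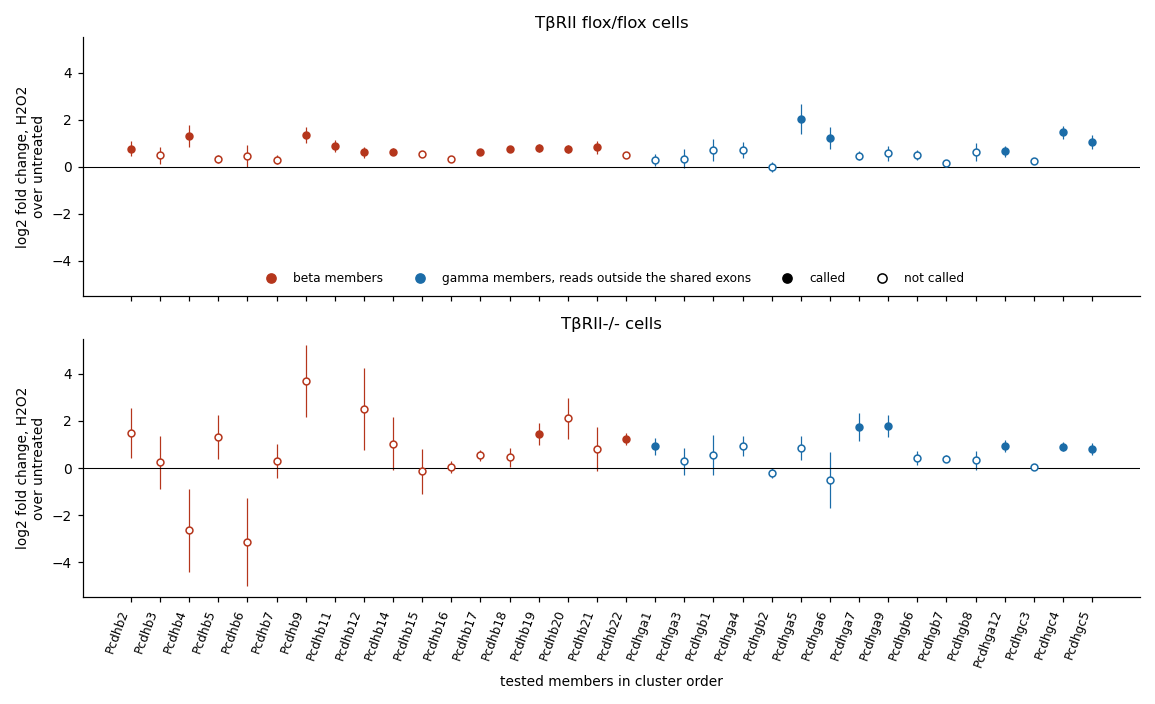
Fitted log2 fold changes of H2O2 over untreated cells, with standard errors, for the tested beta genes and for the gamma genes without the shared part, in cluster order, in TβRII flox/flox (top) and TβRII-/- cells (bottom); filled points were called. In the top panel 11 beta and 5 gamma genes are filled and in the bottom panel 2 and 6; Pcdhb11 has no point in the bottom panel because all 6 libraries held 0 counts.

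Protocadherins outside the clusters and other large cadherins moved in both directions. Of 26 such genes listed, 13 passed the filter, and 5 were called higher and 6 lower in untreated TβRII-/- cells, beside 16.3% higher and 11.8% lower over all genes tested. Pcdh19, a delta protocadherin known from the nervous system, had 2588, 2201 and 2151 normalized counts in untreated TβRII flox/flox and 184, 189.8 and 240.3 in untreated TβRII-/- libraries, a log2 fold change of -3.49 ± 0.09 (adjusted p = 2.72e-25 in edgeR). The planar polarity cadherins Fat4 and Celsr2 were called lower, at -3.12 ± 0.11 and -2.38 ± 0.09. Pcdh9 and Pcdh7 were also called lower, from raw counts of 11, 10 and 13 and of 17, 4 and 5 to 0, 0 and 2 and to 1, 1 and 0. Pcdh17 was counted 2, 0 and 1 times in untreated TβRII flox/flox and 172, 175 and 163 times in untreated TβRII-/- libraries and was called higher. The filter can be passed through the libraries of a single line. Genes near 0 in the other line, as Pcdh9, Pcdh7 and Pcdh17 were without treatment, could then enter the test only by being higher in the first. Their calls, and the counts of 5 and 6 that hold them, are therefore descriptions. Celsr1, a paralog of Celsr2, rose by 2.79 ± 0.26 and Pcdh1 by 2.82 ± 0.31. With H2O2, Pcdh19 rose in both lines, by 0.89 ± 0.07 in TβRII flox/flox and by 1.02 ± 0.10 in TβRII-/- cells.

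Among 30 symbols of chromatin and methylation regulators of the clusters, 29 were found in the tables and passed the filter, and 2 were called higher and 3 lower in untreated TβRII-/- cells, beside 16.3% higher and 11.8% lower over all genes tested. Ctcf had a log2 fold change of -0.27 ± 0.06, Smchd1 of -0.14 ± 0.06 and Dnmt1 of -0.05 ± 0.06, all under 1.5-fold. The shares called in this list are not above those of all genes. The 5 that were called are named here after their values were seen. Pds5b, a regulator of cohesin, had 1404 ± 114 and 2983 ± 110.2 normalized counts (SD, n = 3) in untreated TβRII flox/flox and TβRII-/- cells and was higher in the second, at 1.09 ± 0.06, and so was the cohesin subunit Rad21, at 0.61 ± 0.06. Between the lines with H2O2, Rad21 was at 0.58 ± 0.06, under the 1.5-fold limit, and was not called. The DNA methyltransferase Dnmt3a had 1401 ± 127 and 647 ± 38.5 normalized counts and was lower, at -1.11 ± 0.07, as were the methylcytosine dioxygenases Tet2 and Tet1, at -1.11 ± 0.09 and -1.87 ± 0.61. Tet1 had raw counts of only 11, 8 and 12 in untreated TβRII flox/flox and 2, 5 and 2 in untreated TβRII-/- libraries. It reached the filter mostly through TβRII flox/flox libraries. None of the 29 was called with H2O2 in either line. The median of the list was -0.051 on the log2 scale.

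Of 24 partners and proteases of protocadherin proteins, 22 passed the filter, and 3 were called higher and 4 lower in untreated TβRII-/- cells, beside 16.3% higher and 11.8% lower over all genes tested. These shares are near those of all genes, and the members below are given for their values. Marcks, an actin-binding substrate of protein kinase C that is linked to gamma protocadherin signaling in neurons, was called lower, at -2.49 ± 0.10, and Wasf3, a subunit of the WAVE actin regulatory complex that binds protocadherin tails, was called higher, at 2.62 ± 0.16. Adam10, the metalloprotease that sheds the extracellular part of gamma protocadherins, had 7202 ± 443 against 4727 ± 153 normalized counts (SD, n = 3) and was called lower, at -0.61 ± 0.06. Ptk2, the focal adhesion kinase held in check by protocadherin constant domains, was not called, at 0.16 ± 0.07. The median of the list was -0.13.

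**Figure D5:**
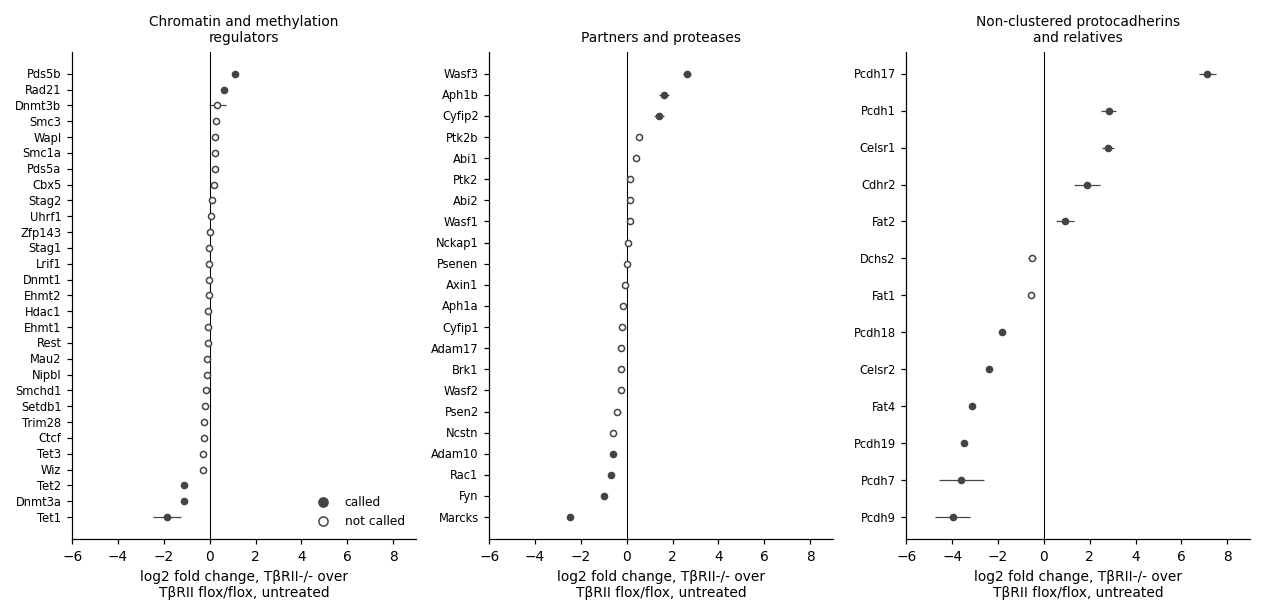
Fitted log2 fold changes of untreated TβRII-/- over untreated TβRII flox/flox cells, with standard errors, for the tested genes of 3 lists; filled points were called. Most regulators and partners lie near 0, with 5 of 29 and 7 of 22 called, while 11 of the 13 tested cadherins outside the clusters were called, in both directions. Among these, Pcdh7, Pcdh9 and Pcdh17 had almost no counts in the untreated libraries of the lower line.

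The genes outside the clusters whose level followed the beta sum most closely over the 12 libraries were Zfhx4, Prss23, Cdh6, Ctsc and Lrrn1, with Pearson's r of 0.9987, 0.9981, 0.9980, 0.9979 and 0.9979 on the log2 scale. Zfhx4, which encodes a zinc finger homeobox protein, had means of 1859, 2305, 87.3 and 121 normalized counts in untreated and H2O2-treated TβRII flox/flox and untreated and H2O2-treated TβRII-/- cells. None of the 5 lies on chromosome 18. The libraries fall into 2 lines, so such an r mostly reflects the difference between them, and 799 of the 12929 other genes tested had an r above 0.95.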

How the data were processed

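Gene expression was measured by stranded mRNA sequencing in 12 libraries. The authors removed adapters with fastp, mapped the reads by STAR against mouse build GRCm38.p6 and, using GENCODE M23 models, obtained the deposited values, raw read counts per transcript, with featureCounts. Strand and multi-mapping settings are not given in the sources used here. Of 106332 transcripts, 104820 were matched to a gene by Ensembl ID. Exon lengths and overlaps were taken from a later GENCODE release than M23. For each gene the count of its most counted transcript was used, which gave 15870155 to 20857618 counts per library, and normalized counts are counts per effective library size times 17351835. Genes passing edgeR's filterByExpr were tested with edgeR 4.0.16 (TMM, quasi-likelihood test, 1 mean per group, Benjamini-Hochberg adjustment over 12971 genes) between lines in each condition, between conditions in each line, and for the interaction. The design had assumed gene counts. For gamma and alpha genes, the lowest count of the cluster in a library was taken as the shared part, and the whole table was refitted without it. Groups at 0 were set to a floor of 3 normalized counts per library.

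On counts simulated at these depths with 2-fold changes between the lines in both conditions, 189 of 199 changed genes were called in the right direction between untreated lines and 2 unchanged genes were called. The simulation gave genes no spread of their own around the dispersion trend and changed far fewer genes than were called here. It therefore does not give the error rates of these data or of members near 0. Other settings were DESeq2 1.42.0, its size factors, 2 filters, the replicate number as a block, only the groups compared, each library left out, sums over transcripts, tests per transcript and library totals. Values per library are given for C-type genes, the 4 highest members of each cluster and the 3 with the largest fold change. Other members, and the 5 called regulators, were named after their values were seen. 1 gene of the list of partners is not reported here. The members and lists were chosen with earlier results of these data known. Correlations of same-numbered libraries' deviations ran from -0.0898 to 0.0582, so the numbers were not taken to pair libraries.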

Additional observations from a re-analysis of the deposited data

How the results depend on the processing

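Between the lines, no member was called higher under any setting except Pcdhgc4 with the shared exon counts removed. With at least 10 counts required in every library, 25 members were called between lines in each condition, because fewer members were tested, and 1 member was called for H2O2 in each line. Leaving out 1 library gave 54 members between untreated lines and 42 to 54 with H2O2 (more alpha transcripts then passed the filter), 6 to 11 for H2O2 in TβRII flox/flox and 1 to 3 in TβRII-/- cells. For H2O2 in TβRII flox/flox, summing over transcripts gave 6 members, and the cause was not tested. In TβRII-/- cells, fitting only the groups compared gave 1, with 3 beta genes tested in place of 18. Removing the shared exon counts gave 8 there, of which 2 were beta and 6 gamma genes. With the shared exon counts removed, the log2 fold change between untreated lines was 0.00050 for Pcdhgb2, 1.54 for Pcdhgc4 and 0.65 for Pcdhgc5, with H2O2 it was 0.98 for Pcdhgc4 and 0.42 for Pcdhgc5, and that of Pcdhgb2 for H2O2 was -0.011 in TβRII flox/flox and -0.20 in TβRII-/- cells, since the reads that gave the opposite sign were those of the shared exons. For H2O2 in TβRII-/- cells, leaving out 1 library gave -0.70 to 1.07 for Pcdhb15 and -0.090 to 0.33 for Pcdhb16, neither of which was called. With library totals in place of TMM, the gamma shared part was 4678 in TβRII flox/flox and 2329 in TβRII-/- cells with H2O2, and the sum of gamma own reads was 1986 in untreated and 2277 in H2O2-treated TβRII-/- cells. Without a filter, the median interaction of the beta genes was 0.0033. The interaction gave 0 members in all 20 alternatives. With the replicate block, 42 members were called between lines in each condition, 9 for H2O2 in TβRII flox/flox and 2 in TβRII-/- cells, and 0 for the interaction. Counts of 0 to 3 per gene summed over the untreated TβRII-/- libraries, as in 14 of the 22 beta genes, limit any statement on single beta genes there.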

Other observations

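Pcdha4b, a gene model whose symbol the membership rule did not match, is named as an alpha protocadherin but held 442 to 1132 counts per library, far more than any alpha member. Of the 2856 bases of its transcript, 446 lie in the exons shared by the gamma genes. Its count differed by -1 to 11 from that of a short Pcdhgc5 transcript in each of the 12 libraries, which held 443 to 1134 counts. Both models thus counted nearly the same reads, and the count of Pcdha4b was not used as a measure of the alpha cluster.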
